A study of Mus musculus with 4 samples.

Results

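Of 20170 cells from B16 melanoma tumors, 638 were CD8+ T cells that carried transcripts of interferon-stimulated genes. They were chosen on their own counts of unique molecular identifiers (UMIs), each of which marks 1 captured transcript. A cell needed at least 1 UMI of Cd3e, at least 1 of Cd8a and Cd8b1 together, 0 of Cd4 and of Foxp3, fewer than 2 of the division genes Mki67 and Top2a together, and at least 3 of Ifit1, Ifit3 and Rsad2 together. These last 3 genes are called the marker genes. The interferon-stimulated cells were 370 of 4512 non-dividing CD8+ cells in the WT library (8.20%, 95% Clopper-Pearson interval 7.42 to 9.04) and 268 of 3555 in the VISTA-KO library (7.54%, 6.69 to 8.46). They were set against the 3495 WT and 2771 VISTA-KO CD8+ cells with no marker UMI, called marker-negative. Another 647 and 516 cells held 1 or 2 marker UMIs and lay between both classes. Because the cells were chosen on these values, the marker genes, and any gene compared between interferon-stimulated and marker-negative cells, are given as a description with no test.

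The study asked what loss of VISTA, an inhibitory receptor of T cells encoded by Vsir, does to tumor-infiltrating T cells. VISTA-KO mice were Vsir fl/fl CD4cre on C57BL/6, and WT mice were Vsir fl/fl littermates without Cre, so both groups carried the floxed allele, and the Cd4 promoter drives Cre in the CD4+ and the CD8+ lineage. The mice carried B16 tumors and received a TRP2 peptide vaccine with CpG and R848 on day 3 and anti-CTLA-4 (clone 9H10) on days 4 and 8 after inoculation. The study used male and female mice. Its methods state an age of 6 to 8 weeks for C57BL/6 mice given tumors, and none separately for the pooled mice. Tumors were taken on day 18 after treatment, and CD4+ and CD8+ TILs were sorted. Each gene expression library held cells of both kinds. Tumors of 5 to 6 mice were pooled per genotype by one description, and 6 to 8 tumors by another. There was thus 1 gene expression library and 1 receptor library per genotype, no replicate and no test between genotypes, and a difference between the libraries cannot be told apart from a difference between the pools. Intervals cover counting error only. The WT library held 72098984 UMIs in 10337 barcodes and the VISTA-KO library 59916814 UMIs in 10085 barcodes. The libraries shared 145 barcodes, 0 of them among interferon-stimulated cells.

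Type I interferons (IFN-alpha and IFN-beta) bind a receptor of Ifnar1 and Ifnar2, whose kinases Jak1 and Tyk2 activate STAT proteins. With IRF9 these form a complex that binds DNA at paired GAAA half-sites and turns on antiviral genes such as the Ifit, Oas and Isg15 genes. IFN-gamma, which T cells themselves secrete, acts through its own receptor and overlapping factors, so that many genes respond to both. CpG and R848, given with the vaccine, engage Toll-like receptors that are known inducers of type I interferon.

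The promoters of the marker genes held the paired half-sites, and they are shown because these genes define the cells. The reference promoters (RefSeq, GRCm38.p6, 250 bases before to 50 bases after the start) were searched for GAAANNGAAA on either strand, and overlapping matches were counted. Each line gives 30 bases in the direction of the gene, with a match in capitals.
Ifit1, chr19:34640775-34640804, plus strand: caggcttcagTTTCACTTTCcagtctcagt
Ifit1, chr19:34640794-34640823, plus strand: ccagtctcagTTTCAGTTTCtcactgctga
Ifit3, chr19:34583363-34583392, plus strand: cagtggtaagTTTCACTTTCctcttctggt
Ifit3, chr19:34583397-34583426, plus strand: tttaagtctgTTTCAGTTTCtactttcctc
Rsad2, chr12:26456553-26456582, minus strand: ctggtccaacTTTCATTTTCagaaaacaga
Isg15, chr4:156200871-156200900, minus strand: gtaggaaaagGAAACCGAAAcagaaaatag
Distances are to the transcript start of the promoter table, which for Ifit3 lies inside the gene as annotated from chr19:34583119 to 34588982. The matches began 104 and 85 bases before the start of Ifit1, 156 and 122 before that of Ifit3, 120 before that of Rsad2 and 72 before that of Isg15, where further matches overlapped it at 78 and 66 bases. All 3 marker genes had a match. So did 23 of 58 genes with a promoter sequence on the list of type I interferon-responsive genes (39.7%), against 1079 of all 27025 genes (3.99%). For MHC class I presentation it was 5 of 16 genes (31.2%), and for effector genes 1 of 14 (7.14%). No share is given for the IFN-gamma-leaning genes, since only 17 of 24 (70.8%) had a promoter sequence. Of these 17 genes 12 had a match, so matches were not particular to the type I list. These matches describe the letters of the sequence and not binding.

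Vsir itself was at 124 CPM (UMIs of the gene per 1000000 UMIs of the class, 95% Poisson interval 110 to 140) in interferon-stimulated cells of WT and 118 (102 to 135) in those of VISTA-KO, and at 125 and 129 in marker-negative cells. The level was thus alike in both libraries. Counts per gene do not show which exons were read, so this checks neither the deletion nor the labels.

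CD8+ T cell markers were at similar levels in both classes. Cd3e, Cd8a and Cd8b1 were required of both by the choice, so their levels are no check of it. The summed level of 7 CD8+ T cell markers (Cd3e, Cd3d, Cd3g, Cd8a, Cd8b1, Trac, Trbc2) was 8012 CPM against 8033 in marker-negative WT cells, and 8125 against 7752 in VISTA-KO. Cd8a was at 1101 against 1092 and at 1124 against 1056 CPM. The interferon-stimulated cells held slightly more UMIs, with a median of 4859.5 against 4469 in WT and 5358.5 against 4875 in VISTA-KO. A limit on raw UMIs favours deeper cells, so this difference depends on the choice. The median share of mitochondrial UMIs of the interferon-stimulated cells was 0.783% against 0.927% and 0.752% against 0.917%.

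Of the marker genes, which were used for the choice, Ifit3 was found in 96.5% of WT and 88.8% of VISTA-KO interferon-stimulated cells, Ifit1 in 86.5% and 86.6%, and Rsad2 in 46.2% and 54.9%. Ifit1 encodes a protein that binds viral RNA, Ifit3 encodes a protein of the same family, and Rsad2 encodes viperin, an antiviral enzyme. All 3 were found together in 155 WT cells (41.9%) and 120 VISTA-KO cells (44.8%), and 12.7% and 14.6% of cells were chosen on 1 gene alone. The median was 6 marker UMIs per cell in both libraries, with quartiles of 4 and 12 and a maximum of 72 and 68. Just inside the limit lay 74 WT and 62 VISTA-KO cells with 3 marker UMIs, and just outside lay 154 and 111 cells with 2.

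The rest of the interferon program was graded along the marker UMIs, with no gap at the limit. A list of 75 type I interferon-responsive genes, 71 of them in the tables and none of them a marker gene, held a median of 80.5 UMIs per 10000 in marker-negative WT cells. This median was 113 at 1 marker UMI, 147 at 2, 167 at 3 and 370 at 12 or more. In VISTA-KO the medians were 92.5, 128, 167, 176 and 373. Cells just inside and just outside the limit thus held nearly the same level. The spread within a class was wide, with quartiles of 280 and 512 in the 103 WT cells with 12 or more marker UMIs and of 303 and 474 in the 71 such VISTA-KO cells. Isg15 followed the same order in WT, from 37.2 CPM at 0 marker UMIs over 101 at 1, 269 at 2 and 429 at 3 to 2503 at 12 or more. In VISTA-KO it went from 55.8 over 174, 291 and 411 to 2708 CPM.

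**Figure D1:**
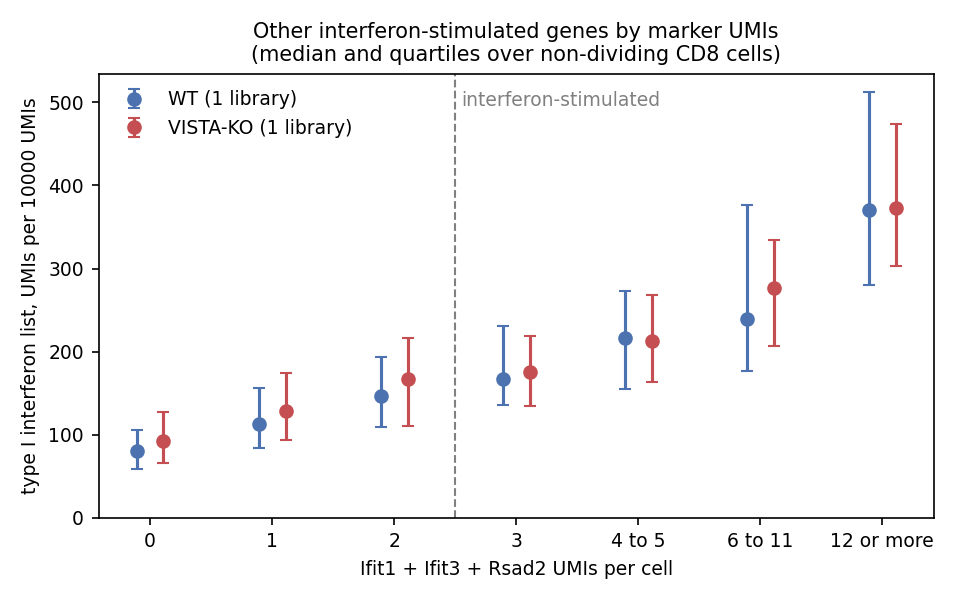
UMIs of the type I interferon list per 10000 UMIs of a cell (vertical axis) by the number of Ifit1, Ifit3 and Rsad2 UMIs of the cell (horizontal axis); points are medians and bars the quartiles over non-dividing CD8+ cells of the 1 WT (blue) and 1 VISTA-KO (red) library. The medians climb from 80.5 and 92.5 in marker-negative cells to 370 and 373 in cells with 12 or more marker UMIs, without a step at the dashed limit.

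Transcripts of the ligands of type I interferon were close to absent in the whole dataset. All Ifna genes were at 0 UMIs in both libraries, and Ifnb1 was at 0 UMIs in WT and at 4 UMIs in 2 cells of VISTA-KO, 3 of them in interferon-stimulated cells. Ifnz, a further type I interferon gene, was at 9 UMIs in 9 WT cells, 1 of them interferon-stimulated, and at 3 UMIs in 3 VISTA-KO cells, none of them interferon-stimulated. These counts limit captured UMIs, not secretion. Ifng, the gene of IFN-gamma, held 12554 UMIs over all WT and 15960 over all VISTA-KO cells. In interferon-stimulated cells it was at 238 CPM against 211 in marker-negative WT cells and at 356 against 372 in VISTA-KO.

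The receptors and kinases were at nearly the same level in both classes. None of the 6 receptor and kinase genes that reached 20 CPM differed by 2-fold in either library, with a median log2 ratio of 0.04 in WT and 0.14 in VISTA-KO. All log2 ratios are of CPM + 5, which understates differences of low genes. Over all genes at 20 CPM or more in either class, 165 of 6071 (2.72%) were past 2-fold higher and 8 (0.132%) past 2-fold lower in WT, and 162 of 5983 (2.71%) and 17 (0.284%) in VISTA-KO, with medians of -0.0409 and -0.0455. Ifnar1 was at 104 CPM against 98.1 in WT and at 139 against 111 in VISTA-KO, and Ifnar2 at 121 against 118 and 124 against 111. Jak1 was at 447 against 455 and 425 against 404 CPM, and Tyk2 at 38.8 against 41.9 and 38.8 against 35.0. Ifngr1, a chain of the IFN-gamma receptor, was at 905 against 872 and 695 against 714 CPM.

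Among the transcription factors, Stat2, Irf9 and Irf7 stood apart from Stat3, Irf3 and Irf8. Stat2 was at 102 CPM against 22.1 in marker-negative WT cells and at 105 against 26.8 in VISTA-KO, log2 ratios of 1.98 and 1.80. Irf7, which amplifies interferon production, was at 534 against 76.6 and 528 against 90.8 CPM, log2 ratios of 2.72 and 2.47. Irf9 was at 99.0 against 50.3 and 144 against 66.8 CPM, just under 2-fold in WT (0.91) and just over it in VISTA-KO (1.05). By contrast, Stat3 was at 275 against 236 and 261 against 242 CPM, Irf3 at 42.0 against 42.6 and 39.4 against 39.1, and Irf8 was lower, at 71.6 against 92.9 and 81.8 against 106.

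The known brakes on the pathway were not higher together. Usp18, which strips ISG15 from proteins and blocks the receptor, was at 243 CPM (223 to 265) against 10.5 in WT and at 246 (223 to 271) against 14.3 in VISTA-KO, log2 ratios of 4.01 and 3.70. Socs1, an inhibitor of JAK kinases, was at 251 against 129 and 284 against 150 CPM, just short of 2-fold on this scale (0.93 and 0.90). Socs3 was at 93.5 against 87.1 and 96.9 against 110 CPM. Of 6 listed brakes, Usp18 was past 2-fold in both libraries.

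Of the 71 type I interferon-responsive genes in the tables, 57 were past 2-fold higher in WT and 56 in VISTA-KO, and 0 were past 2-fold lower. With cells of at least 2 UMIs of other cell types left out, 1 gene, Ifitm1, was past 2-fold lower in VISTA-KO. The summed list was at 25334 CPM against 8164 in WT and at 25563 against 9712 in VISTA-KO. The list overlaps in its regulation with the genes that chose the cells, and a gene that reached 20 CPM only in the interferon-stimulated cells had to be higher there, so these counts describe the cells and lend no support. The median log2 ratio of the genes that reached 20 CPM was 2.03 in WT (66 genes) and 1.88 in VISTA-KO (65 genes). Macrophage markers were higher in the same cells, as given further on, and the median was 2.02 and 1.91 in cells with no macrophage UMI.

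The highest log2 ratio of CPM + 5 on this list was that of Isg15 (4.99 and 4.44), a ubiquitin-like protein that is attached to others during the antiviral response. It was at 1335 CPM (1287 to 1384) against 37.2 (34.5 to 40.1) in WT and at 1314 (1259 to 1371) against 55.8 (52.1 to 59.7) in VISTA-KO, a ratio of 35.9 and 23.6. The other genes of the ISG15 pathway were past 2-fold too in both libraries, 6 of 6 with Isg15 and Usp18, and among them the conjugating enzyme Ube2l6 was at 119 against 17.1 and 83.6 against 17.8 CPM. Cmpk2, a mitochondrial nucleotide kinase that lies beside Rsad2, was at 142 against 3.61 and 130 against 4.33 CPM, a larger plain ratio of 39.4 and 29.9 on far fewer UMIs.

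The families of antiviral effectors were each higher. Ifit2, an RNA-binding relative of the marker genes, was at 215 against 17.0 CPM in WT and 153 against 17.1 in VISTA-KO. Ifit3b and Ifit1bl1 are relatives of marker genes and could share reads with them, so their values are uncertain. Oas3, a sensor of double-stranded RNA, was at 128 against 14.9 and 111 against 17.8 CPM, and 5 of the 8 OAS and MX family genes in the tables were past 2-fold in each library. Mx1 and Mx2 were not analysed here.

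Of the 11 sensors of foreign nucleic acid in the tables, 4 were past 2-fold higher in each library. Zbp1, which binds Z-form nucleic acid, was at 674 against 118 CPM in WT and 631 against 141 in VISTA-KO. Ifih1, the RNA sensor MDA5, was at 140 against 13.0 and 115 against 14.0. Ddx58, the sensor RIG-I, was at 211 against 57.6 and 228 against 58.2. The others that reached 20 CPM were level. The DNA sensor Aim2 was at 51.1 against 46.2 and 51.5 against 41.4 CPM, and Tmem173, the gene of STING, at 96.2 against 89.1 and 91.5 against 88.4. Of the 10 PYHIN family genes in the tables, 8 were past 2-fold in WT and 7 in VISTA-KO, such as Ifi209 at 376 against 71.4 and 367 against 81.1 CPM. These genes are close relatives, so reads could be shared among them.

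Membrane and growth-restricting factors varied more. Bst2 (tetherin), which holds budding virus at the membrane, was at 883 CPM against 152 in WT and 731 against 166 in VISTA-KO. Ifitm3, which blocks viral entry, had log2 ratios of 3.23 and 2.54, at 176 CPM in WT and 141 in VISTA-KO interferon-stimulated cells, but at 91.7 and 53.3 CPM in those with no macrophage UMI and at 38.3 and 42.6 CPM in those with fewer than 2 UMIs of other cell types. The 5 cells with the most Ifitm3 UMIs held 63.5% and 75.9% of them. Of the 5 genes of the IFITM and tetherin list, 4 were past 2-fold higher in WT and 3 in VISTA-KO, where Ifitm1 was level at 37.0 against 37.6 CPM, its 61 UMIs in interferon-stimulated cells lying in 4 of them. Without cells of at least 2 UMIs of other cell types, Ifitm1 in VISTA-KO was at 4.35 against 44.8 CPM (-2.41). Slfn5 was at 130 against 7.97 and 96.9 against 9.12, and Slfn2, which T cells use to keep quiescence, at 609 against 317 and 616 against 325. Ly6a (Sca-1) was at 1711 against 606 and 1967 against 826 CPM. The ratios of Slfn2 (0.93 and 0.91) and Ly6a (1.49 and 1.25 on the log2 scale) were thus among the smaller ones of the interferon-stimulated families.

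**Figure D2:**
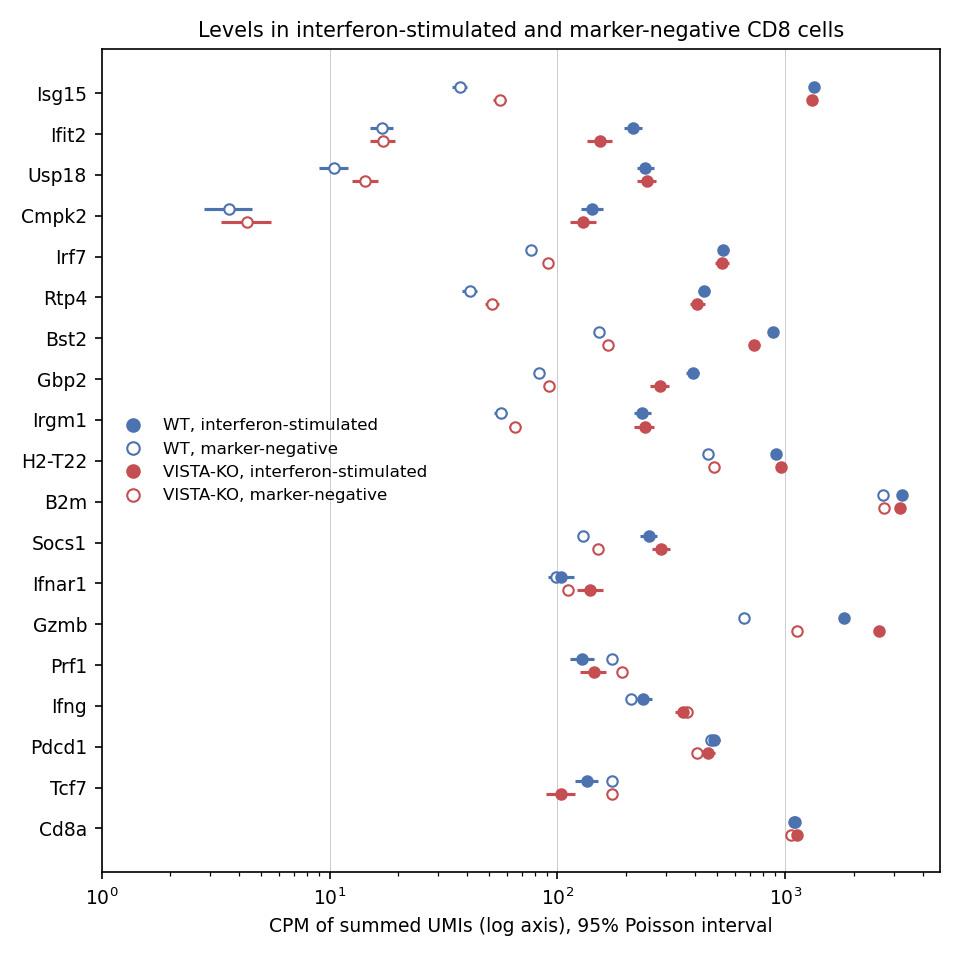
CPM of summed UMIs on a log axis for 19 genes in interferon-stimulated (filled) and marker-negative (open) CD8+ cells of the 1 WT (blue) and 1 VISTA-KO (red) library; bars are 95% Poisson intervals. Isg15, at 1335 and 1314 against 37.2 and 55.8 CPM, is far apart between the classes, and Ifnar1 and Cd8a are not.

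Genes that respond mainly to IFN-gamma were higher as well. Of 24 such genes in the tables, 19 were past 2-fold in WT and 17 in VISTA-KO, and the median over those that reached 20 CPM was 1.80 and 1.53. Most are GTPases that attack the vacuoles of intracellular pathogens. Gbp2 was at 393 against 83.2 CPM in WT and 281 against 92.0 in VISTA-KO, Igtp at 378 against 92.6 and 488 against 142, and Iigp1 at 98.1 against 9.21 and 90.3 against 17.9. Cd274, the gene of PD-L1, was at 120 against 36.6 and 139 against 49.9 CPM. Irf1, a factor that interferon induces, was only at 328 against 240 and 397 against 314.

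The chemokine gene Cxcl10, which draws CXCR3-bearing T cells, was at 353 CPM against 11.5 in WT and 301 against 25.9 in VISTA-KO. It was carried by a minority of cells. At least 1 UMI was found in 74 of 370 WT and 55 of 268 VISTA-KO interferon-stimulated cells, against 107 of 3495 and 98 of 2771 marker-negative cells, and the 5 cells with the most UMIs held 47.1% and 57.3% of them. In cells with no macrophage UMI the level was 337 and 318 CPM. Cxcr3 was at 418 against 318 and 361 against 294 CPM.

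All 19 genes of MHC class I presentation were above 0 on the log2 scale in both libraries, with none past 2-fold and medians of 0.49 and 0.38. The nonclassical H2-T22 was at 910 CPM against 458 in WT and 960 against 484 in VISTA-KO, and Tapbp, which loads peptide, at 501 against 264 and 496 against 285. The classical H2-K1 was at 5375 against 4553 and 4967 against 4344, and B2m, the shared light chain, at 3261 against 2673 and 3186 against 2708. The H2 genes are close copies, so their values are uncertain.

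**Figure D3:**
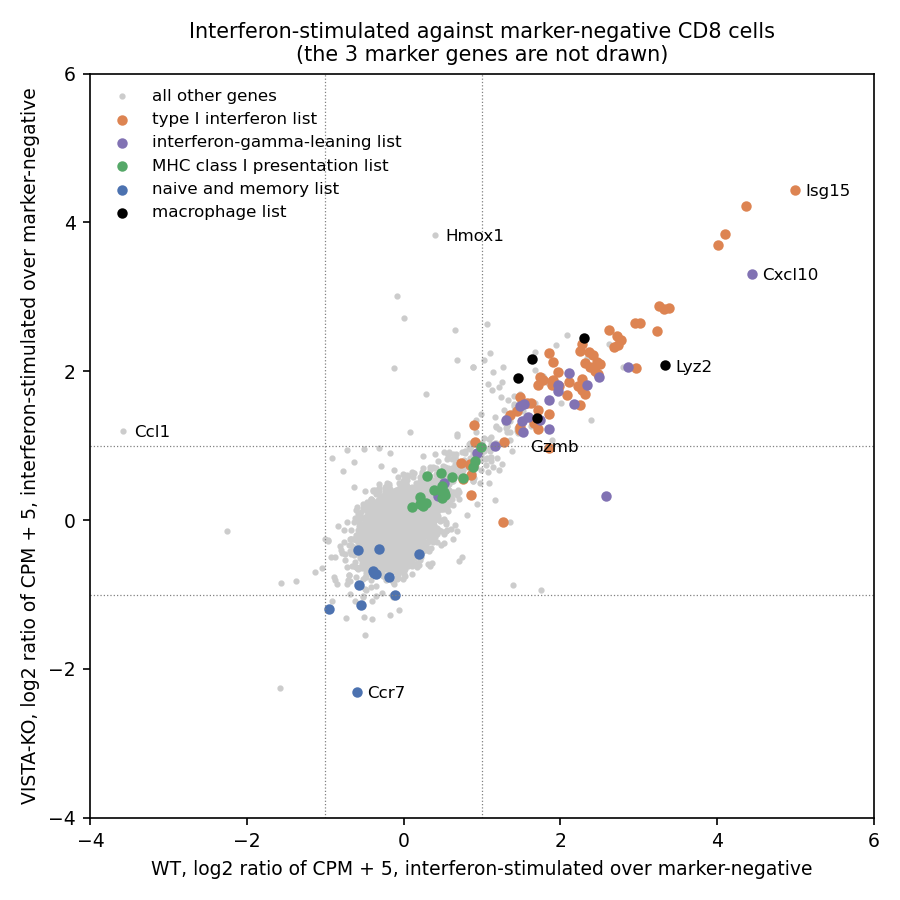
Log2 ratio of CPM + 5 of interferon-stimulated over marker-negative cells in the 1 WT library (horizontal) and the 1 VISTA-KO library (vertical), with 1 point per gene at 20 CPM or more in a class, coloured by gene list; the marker genes are not drawn and dotted lines mark 2-fold. The type I list lies in the upper right with Isg15 at 4.99 and 4.44, the naive and memory list lies mostly below 0, and Ccl1 and Hmox1 lie off the diagonal.

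Outside the lists, several genes that were spread over many cells were among the highest. Samhd1, which depletes nucleotides, was at 743 CPM against 203 in WT and 805 against 222 in VISTA-KO. Pml, the organizer of nuclear bodies, was at 134 against 31.2 and 163 against 27.9, and Trafd1, a negative regulator of innate signaling, at 243 against 51.6 and 220 against 52.9. Mov10, an RNA helicase that restricts retroelements, was at 83.0 against 16.9 and 61.2 against 17.1 CPM. Of the genes past 2-fold higher, 135 were shared by both libraries, 81.8% of the WT and 83.3% of the VISTA-KO genes, and 57 of these were marker genes or on the type I list.

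The lowest genes outside the lists were few and less alike between libraries, with 1 gene past 2-fold lower in both. This gene was Nrgn (neurogranin), named here from its count, at 12.3 CPM against 46.9 in WT and 7.88 against 56.6 in VISTA-KO. Rgs16, a brake on chemokine receptor signaling, was at 110 against 247 and 249 against 407. Stmn1, which is linked to division, was at 26.0 against 50.7 and 28.5 against 55.8, and none of the listed DNA replication genes was past 2-fold, with medians of -0.27 and -0.15.

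Several of the highest genes came from few cells. Ccl2, Tgfbi, Cd63, Lgmn and Atf3 were found in 5 to 17 interferon-stimulated cells per library. The summed macrophage markers were at 335 CPM (311 to 360) against 47.4 in WT and at 348 (320 to 377) against 61.6 in VISTA-KO, with Lyz2 the most abundant at 155 against 10.8 and 123 against 25.2. The 5 of 7 markers that reached 20 CPM were past 2-fold higher in each library, and none of the 7 was at 0. Their UMIs lay in few cells. At least 1 was found in 23 WT (6.22%) and 24 VISTA-KO (8.96%) interferon-stimulated cells, against 4.98% and 6.42% of marker-negative cells, and 6 and 8 cells held 95.8% and 94.3% of them. Markers of dendritic cells were higher too over all cells, at 833 against 408 CPM in WT and 487 against 128 in VISTA-KO, mostly Cd74 (632 against 299 and 356 against 96.8), with Xcr1 at 0 in both libraries and Flt3 at 0 in VISTA-KO. The 5 cells with the most Cd74 UMIs held 76.2% of them in WT and 91.2% in VISTA-KO. In cells with no macrophage UMI, Cd74 was at 369 against 198 CPM in WT but lower in VISTA-KO, at 24.6 against 63.5. Of cells with a beta chain, 14 WT (4.68%, 2.58 to 7.73) and 21 VISTA-KO (9.21%, 5.79 to 13.7) held at least 2 productive ones. Among marker-negative cells it was 2.60% (2.06 to 3.24) and 4.10% (3.36 to 4.95). The intervals overlapped in WT and were apart in VISTA-KO.

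Without every cell that held a macrophage UMI, 347 WT (8.12%) and 244 VISTA-KO (7.35%) interferon-stimulated cells stayed. In these, 149 genes (2.46%) were past 2-fold higher in WT and 133 (2.23%) in VISTA-KO, and Isg15 was at 1367 and 1333 CPM. Ccl2 was then at 0 and 0.683 CPM. With cells of at least 2 UMIs of any other cell type's markers left out, 279 (8.18%) and 201 (7.11%) cells stayed, with type I list medians of 2.09 and 1.99. The type I program was thus as large without these cells, and the Ccl2 signal was not.

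Among T cell states, Gzmb, the gene of the cytotoxic protease granzyme B, stood out of the effector list. It was at 1807 CPM (1751 to 1864) against 657 in WT and at 2585 (2508 to 2664) against 1125 in VISTA-KO, log2 ratios of 1.45 and 1.20. It was at 1895 against 650 and 2651 against 1115 in cells with no macrophage UMI. With every cell thinned to 2000 UMIs, at least 1 Gzmb UMI was found in 67.5% (62.4 to 72.3) of WT interferon-stimulated cells against 42.6% of marker-negative cells, and in 66.0% (59.9 to 71.7) against 47.5% in VISTA-KO. The shares before thinning were 79.6% against 54.3% and 77.9% against 57.3%. Cells with Siglech and no Cd3e, which should lack Gzmb, gave 0.690% and 0.980% after thinning. Their median depth was 8299 UMIs in WT and 8717 in VISTA-KO, and that of the interferon-stimulated cells 4871 and 5415.5. Thinning left out 7 and 6 interferon-stimulated and 203 and 127 marker-negative cells.

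The other effector genes showed no common direction. Prf1, which encodes perforin, was at 128 CPM against 173 in WT and 144 against 192 in VISTA-KO, Ccl5 at 11268 against 11674 and 13631 against 12020, and Gzmk at 688 against 478 and 631 against 470. Xcl1, a chemokine gene, was lower, at 54.3 against 170 (-1.57, past 2-fold) and 161 against 293 (-0.84), with 160 of the 266 VISTA-KO UMIs in 1 cell. Over the 15 effector genes that reached 20 CPM, 6 were above and 9 below 0 in WT and 5 and 10 in VISTA-KO, with medians of -0.09 and -0.07. The same held for the list of inhibitory receptors and exhaustion genes, with 4 above and 7 below 0 in WT and 6 and 6 in VISTA-KO. Pdcd1 (PD-1) was at 487 against 473 and 459 against 410 CPM, Havcr2 (TIM-3) at 26.0 against 44.3 and 52.7 against 67.8, and Tox, a regulator of exhaustion, at 125 against 184 and 134 against 165. Ctla4 was found after thinning in 33.2% (27.5 to 39.3) of VISTA-KO cells against 23.1% (21.5 to 24.8), with intervals apart. In WT it was 18.7% against 16.7%, with overlapping intervals. Thinned shares of Pdcd1 were 44.6% against 38.9% in WT and 42.0% against 34.3% in VISTA-KO, overlapping in both. Those of Havcr2 were 3.03% against 5.59% and 9.16% against 8.40%, overlapping too.

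Most genes of naive and memory T cells were below 0 on the log2 scale, few of them past 2-fold. Of 12 genes, 11 were below 0 in WT and 12 in VISTA-KO, 0 and 3 of them past 2-fold, with medians of -0.38 and -0.74. Klf2, which keeps T cells in circulation, was at 352 CPM against 515 in WT and 331 against 736 in VISTA-KO. Tcf7, the factor of stem-like T cells, was at 135 against 174 and 104 against 174. After thinning, Ccr7 was found in 4.13% against 8.26% of WT cells and 3.05% against 12.0% of VISTA-KO cells, and in 0 of 145 and 0 of 102 cells with Siglech, which allows up to 2.51% and 3.55%. The shares before thinning were 7.44% against 12.8% and 5.73% against 17.4%. The thinned shares of Tcf7 were 22.6% against 26.9% in WT, with overlapping intervals, and 15.6% against 24.5% in VISTA-KO. Those of Il7r were 13.2% against 15.4%, overlapping too, and 11.5% against 21.9%. Slamf6 was found in 13.5% against 10.5% in WT and 6.49% against 9.08% in VISTA-KO, with overlapping intervals in both.

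Genes linked to cell death were partly higher. Casp8 was at 156 against 75.6 CPM in WT and 141 against 66.5 in VISTA-KO, Xaf1 at 281 against 48.3 and 261 against 51.9, and Daxx at 239 against 46.2 and 231 against 44.0. Xaf1 and Daxx are interferon targets themselves and both are on the type I list. Tnfsf10, the gene of TRAIL, was past 2-fold in VISTA-KO (92.7 against 39.6) and not in WT (63.9 against 38.0). Of 12 genes of this list, 2 were past 2-fold higher in WT, Xaf1 and Daxx, and 4 in VISTA-KO, these and Casp8 and Tnfsf10. Lgals9 (galectin-9), listed among partners of VISTA, was at 366 against 160 and 353 against 170 CPM.

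Between the genotypes, the interferon program of the interferon-stimulated cells lay at nearly the same level. The cells of both libraries were chosen by the same limit on interferon genes, so this likeness is in part set by the choice. Over all non-dividing CD8+ cells, Isg15 was at 169 CPM in WT and 182 in VISTA-KO. The share of interferon-stimulated cells was -0.662 percentage points in VISTA-KO minus WT, and the intervals of both shares overlapped. Among these cells the type I list had a median log2 ratio of VISTA-KO over WT of -0.04, with 24 genes above and 42 below 0 of the 66 that reached 20 CPM. Of its genes, 0 were past 1.5-fold higher and 3 past 1.5-fold lower. The latter were 4 in cells with no macrophage UMI and 6 with cells of at least 2 UMIs of other cell types left out. Over all genes, 125 of 5984 (2.09%) were past 1.5-fold higher in VISTA-KO and 143 (2.39%) lower, with a median of -0.0411. Those lower were 191 of 5957 genes (3.21%) in cells with no macrophage UMI. They were 253 of 6004 (4.21%) with cells of at least 2 UMIs of other cell types left out. Isg15 (-0.02), Usp18 (0.02) and Irf7 (-0.02) were level. Over all cells the 3 lower genes were Oasl2, at 25.4 CPM (18.3 to 34.4) against 53.4 (44.1 to 64.0), Ms4a4c, at 80.6 against 129, and Ifitm2, at 37.6 against 59.8, the last with most of its UMIs in few cells.

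In marker-negative cells more of the interferon genes were above 0. Over the 47 type I genes that reached 20 CPM in both classes, the median was 0.15 in marker-negative cells, with 37 above and 10 below 0, and -0.01 in interferon-stimulated cells. Over the 18 such IFN-gamma-leaning genes, the median was 0.20 with 18 above 0 and 4 past 1.5-fold in marker-negative cells, and 0.06 with 12 above and 6 below 0 in interferon-stimulated cells. Over all genes of marker-negative cells, 51 of 5972 (0.854%) were past 1.5-fold higher in VISTA-KO and 30 (0.502%) lower. The count of 4 was 2 in cells with no macrophage UMI and 3 with cells of at least 2 UMIs of other cell types left out. Summed dendritic markers of marker-negative cells were at 128 CPM in VISTA-KO against 408 in WT, and macrophage markers at 61.6 against 47.4. Their part in these ratios was not tested. Isg15 was at 0.53 in marker-negative against -0.02 in interferon-stimulated cells, Gbp6 at 0.74 against 0.22 and Iigp1 at 0.69 against -0.11 on the log2 scale. Both classes were chosen on interferon genes, so the ratios within each depend on the choice. The difference between the classes was not tested, for want of replicates.

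**Figure D4:**
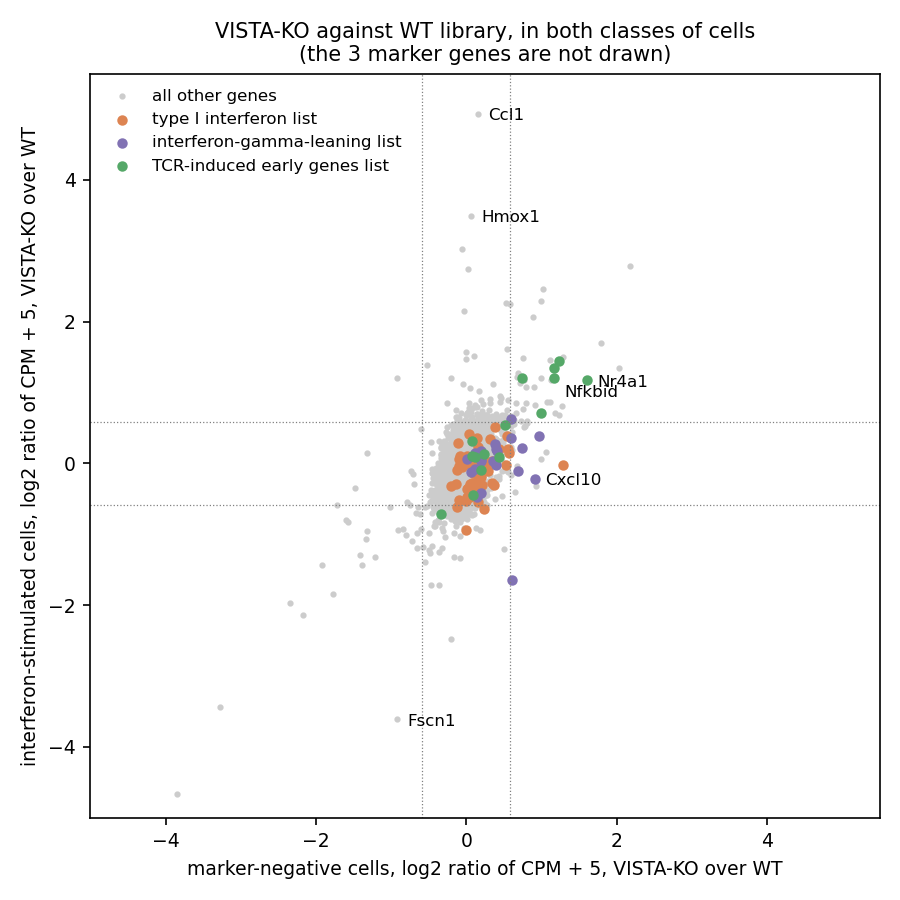
Log2 ratio of CPM + 5 of VISTA-KO over WT in marker-negative (horizontal) and interferon-stimulated (vertical) CD8+ cells, 1 library per genotype, with 1 point per gene coloured by gene list; dotted lines mark 1.5-fold and the marker genes are not drawn. Nr4a1 lies at 1.60 and 1.17, Cxcl10 at 0.91 and -0.22, and Ccl1, Hmox1 and Fscn1 lie off the diagonal with UMIs from few cells.

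Differences between genotypes are given for both classes side by side, and the classes were not tested against each other. Early genes of T cell receptor signaling were mostly above 0 in VISTA-KO over WT, 12 of 15 above 0, 6 past 1.5-fold higher and 1 lower, with a median of 0.31 in interferon-stimulated cells and 0.43 in marker-negative cells. Nr4a1, a reporter of receptor signaling, was at 261 CPM against 113 in WT interferon-stimulated cells, log2 1.17, and at 1.60 in marker-negative cells. Nr4a3 was at 1.35 and 1.17, Nfkbid at 1.20 and 1.17, and Rgcc at 1.45 and 1.23. The inhibitory receptor gene Ctla4 was at 258 against 139 CPM, log2 0.87, and at 0.45 in marker-negative cells. Gzmb was at 2585 against 1807, log2 0.52, and at 0.77 in marker-negative cells.

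Lower in VISTA-KO were Txnip, a gene tied to glucose uptake, at 269 CPM against 521 (-0.94, and -0.91 in marker-negative cells), and the granzyme gene Gzma at 214 against 437 (-1.01 and -0.80). The unnamed gene Gm42031 was at 12.1 against 70.7 CPM (-2.14 and -2.17). Hspa1b, a heat shock gene that also responds to handling of tissue, was at -1.16 and -0.46. Xist, which cells of females express, was at 0.26 and 0.08, and the sex of the pooled mice was not given per library. Other large ratios came from few cells. All 313 Ccl1 UMIs of VISTA-KO interferon-stimulated cells lay in 1 cell, 243 of 287 Hmox1 UMIs in 1 cell and 131 Il17a UMIs in 3 cells, and 103 of 123 Fscn1 UMIs of WT lay in 1 cell.

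Receptor sequences, which were not used to choose the cells, placed the interferon-stimulated cells in many clones. A clonotype is defined here by V gene and CDR3 (the junction that reads the antigen), as nucleotides, of the alpha chain and the beta chain with the most UMIs. The 281 WT interferon-stimulated cells with a clonotype fell into 120 clonotypes and the 204 VISTA-KO cells into 157, of which 21 and 18 held at least 2 such cells. No clonotype of the interferon-stimulated cells of one library was found among those of the other. Sharing over all CD8+ clonotypes of both libraries was not computed, so this absence cannot be read as a trait of these cells. Of the clonotypes with at least 10 non-dividing CD8+ cells, 27 of 46 in WT and 22 of 29 in VISTA-KO had at least 1 interferon-stimulated cell. Clonotypes of at least 2 CD8+ cells made up 83.6% (78.8 to 87.8) of WT interferon-stimulated cells against 78.2% (76.6 to 79.7) of marker-negative cells, and 61.8% (54.7 to 68.5) against 60.1% (58.1 to 62.2) in VISTA-KO. These intervals overlapped in both libraries. Clonotypes of at least 50 cells made up 46.6% (40.7 to 52.6) against 38.4% (36.6 to 40.3) in WT, where the intervals did not overlap, and 14.2% (9.73 to 19.8) against 12.1% (10.8 to 13.5) in VISTA-KO. The WT difference rested on the largest clonotype. Among cells of the other clonotypes, a split computed after these values were seen, it was 15.3% (10.3 to 21.4) against 17.5% (15.9 to 19.2) in WT and 3.85% (1.56 to 7.76) against 5.53% (4.59 to 6.59) in VISTA-KO.

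The largest clonotype of each library also held the most interferon-stimulated cells, and its CDR3 sequences are shown to identify it.
WT largest clonotype, TRAV10N: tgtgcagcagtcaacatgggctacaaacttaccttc
WT largest clonotype, TRBV12-2: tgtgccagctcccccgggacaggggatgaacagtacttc
VISTA-KO largest clonotype, TRAV16N: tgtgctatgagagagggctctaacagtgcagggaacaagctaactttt
VISTA-KO largest clonotype, TRBV13-1: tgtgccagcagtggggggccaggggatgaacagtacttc
In WT, 104 of its 966 non-dividing cells were interferon-stimulated (10.8%, 8.88 to 12.9), against 6.75% (5.82 to 7.77) of cells of all other clonotypes, and it made up 37.0% of interferon-stimulated and 25.4% of marker-negative cells with a clonotype. In VISTA-KO it was 22 of 215 (10.2%, 6.52 to 15.1) against 6.81% (5.89 to 7.83). The WT intervals were apart and the VISTA-KO intervals overlapped, and the cells of 1 clonotype are not independent samples. The next clonotypes by interferon-stimulated cells held 19 of 268 (7.09%) and 7 of 43 (16.3%, 6.81 to 30.7) in WT and 6 of 98 (6.12%) and 4 of 18 (22.2%, 6.41 to 47.6) in VISTA-KO. These were named for holding many such cells. The clonotypes of rank 3 by size held 0 of 48 (0 to 7.40) in WT and 1 of 43 (2.33%) in VISTA-KO. Their median depth was 9272.5 and 9658 UMIs. Cells without a clonotype were interferon-stimulated in 9.65% and 9.58%.

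**Figure D5:**
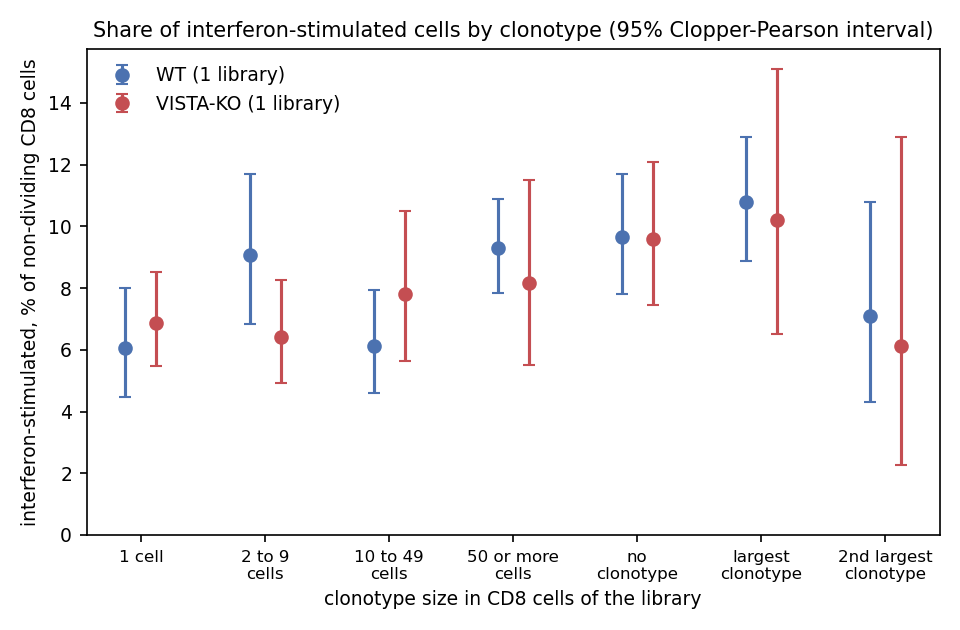
Share of non-dividing CD8+ cells that were interferon-stimulated (vertical axis, in percent) by the size of their clonotype in the library, for cells without a clonotype, and for the largest and 2nd largest clonotype; bars are 95% Clopper-Pearson intervals, 1 library per genotype. The largest clonotype lies at 10.8% in WT and 10.2% in VISTA-KO, and all other groups lie between 6.06% and 9.65%.

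The interferon program also stood apart within 1 clonotype. In the largest WT clonotype the type I list was at 26893 CPM in 104 interferon-stimulated cells and 9036 in 713 marker-negative cells, and Isg15 at 1440 against 37.1. Gzmb was at 2285 against 838 and Klf2 at 102 against 265 CPM, and the macrophage list at 16.7 against 33.8. Xcl1, lower over all WT cells, was higher within this clonotype, at 24.1 against 4.53 CPM on 13 and 15 UMIs. In the largest VISTA-KO clonotype the type I list was at 34152 CPM in 22 cells against 11681 in 157, Isg15 at 2208 against 74.2, and Gzmb at 4604 against 3073. The macrophage list was at 72.6 against 40.7 there, and Xcl1 at 0 against 29.5 CPM. Cd74 was higher in both, at 516 against 131 CPM in WT and 29.0 against 8.14 in VISTA-KO, the latter on 4 and 8 UMIs, and its part in the Gzmb difference was not tested.

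Marker UMIs were also found in other T cells of the tumors. With every cell thinned to 2000 UMIs, at least 3 marker UMIs were found in 4.11% (3.54 to 4.75) of non-dividing CD8+ cells in WT and 3.88% (3.25 to 4.58) in VISTA-KO. The shares were 4.02% (2.90 to 5.41) and 2.47% (1.86 to 3.20) of conventional CD4+ cells, 1.88% and 1.66% of regulatory T cells, and 1.09% and 2.48% of dividing CD8+ cells. Before thinning, the CD4+ shares were 70 of 1120 (6.25%) and 126 of 2341 (5.38%), those of regulatory T cells 5.12% and 5.69%, and those of dividing CD8+ cells 5.40% and 6.05%. Cells with Siglech and no Cd3e gave 0.690% (0.0175 to 3.78) and 0% (0 to 3.55) after thinning and 1.38% and 1.94% before it. The thinned shares of regulatory T cells, of dividing CD8+ cells and of VISTA-KO conventional CD4+ cells lay within these intervals. The cells with Siglech held Isg15 at 165 CPM in WT and 204 in VISTA-KO, so their marker UMIs could be their own or background. With 145 and 102 of them after thinning, this comparison cannot decide whether the shares lay above background. The intervals of non-dividing CD8+ cells and of WT conventional CD4+ cells also overlapped those of the cells with Siglech. In conventional CD4+ cells with at least 3 marker UMIs, Isg15 was at 1770 and 1693 CPM, against 52.5 and 85.8 in marker-negative ones. Cxcl10 was at 1684 and 394 CPM, against 25.7 and 56.3. The macrophage list was higher in the former cells too, at 450 CPM against 16.3 in WT and 318 against 74.3 in VISTA-KO, and its part in the Cxcl10 level was not tested. In regulatory T cells with at least 3 marker UMIs Isg15 was at 914 and 1266 CPM, against 50.2 and 97.5 in marker-negative ones. In such dividing CD8+ cells it was at 570 and 657 against 27.0 and 47.8, beside 1335 and 1314 CPM in the non-dividing CD8+ cells. The type I list medians per 10000 UMIs were 238 against 81.6 and 254 against 89.1 in regulatory T cells. They were 155 against 54.7 and 235 against 74.3 in dividing CD8+ cells, and 357 against 76.6 and 250 against 77.7 in conventional CD4+ cells. All these cells were chosen on marker UMIs, so the values only describe them. These values are not at matched depth, since the median was 13483 and 10720 UMIs in the dividing and 4859.5 and 5358.5 in the non-dividing cells, so that 3 UMIs were a lower level in the former. The macrophage list was lower than in marker-negative cells of the same kind in WT, at 12.2 against 58.9 CPM in regulatory T cells and at 8.63 CPM in dividing CD8+ cells, but higher in VISTA-KO, at 183 against 27.0 and 676 against 64.3, and its part in these values was not tested. Gzmb was at 545 CPM against 177 in marker-negative conventional CD4+ cells of WT and at 730 against 226 in VISTA-KO. In regulatory T cells it was at 1339 CPM against 520 in WT and at 1421 against 1086 in VISTA-KO. In dividing CD8+ cells Gzmb was at 1580 CPM against 625 in WT and at 1489 against 1563 in VISTA-KO.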

How the data were processed

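Both gene expression libraries and both receptor libraries were used. The authors ran Cell Ranger 5.0.0 on 10x reads against the mouse reference of GRCm38 and deposited raw UMI counts, whole numbers per gene and barcode for 32285 genes, and a count of UMIs per receptor contig. The kit is a 3′ kit with feature barcodes by the labels but a 5′ kit with receptor sequencing by the methods, and the receptor contigs need the latter. Strand and shared reads were settled by that pipeline, so close gene copies stay uncertain.

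Cells with at least 600 genes and under 30% mitochondrial UMIs were kept (10224 of 10337 WT and 9946 of 10085 VISTA-KO barcodes). No doublet caller was run, and an alternative left out cells with 2 or more beta chains or very high UMIs. UMIs were summed per library and class and scaled to CPM. Log2 ratios used CPM + 5 and genes with at least 20 CPM in a class. The folds were 2 between classes and 1.5 between genotypes. With 1 library per genotype no test was run. Shares have Clopper-Pearson and levels Poisson intervals. Shares of cells with a UMI were repeated after thinning to 2000 UMIs. The 3495 and 2771 marker-negative cells summed to 18561756 and 15234762 UMIs, and the 370 and 268 interferon-stimulated cells to 2192408 and 1650416.

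The cells and the 34 gene lists (327 genes, 9 not analysed here by the listed symbol) were chosen with earlier results of these data known. Named genes were those of the lists. Outside the lists, they were the 15 highest and 15 lowest log2 ratios of both libraries between classes, and the 10 highest and 10 lowest between genotypes at 50 CPM or more, receptor segments left out. The 3 clonotypes with most interferon-stimulated cells per library were also named. Xist was added after its value was seen. Python 3.11.15, numpy 2.4.6, scipy 1.17.1, pandas 2.3.3 and matplotlib 3.10.9 were used, and the ratio, interval and thinning steps were tested on simulated data. Some listed genes are not reported here.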

Additional observations from a re-analysis of the deposited data

Results flagged for a closer look

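Ccl1, a chemokine gene, went in opposite directions between the libraries. Its log2 ratio of interferon-stimulated over marker-negative cells was -3.58 in WT and 1.20 in VISTA-KO. The WT value rests on 3 UMIs in 3 cells, and all 313 UMIs of the VISTA-KO interferon-stimulated cells lay in 1 cell. The difference was not tested, since each genotype had 1 library.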

How the results depend on the processing

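The alternatives changed the marker limit, the depth, the cells kept, the pseudocount, the CPM filter, the weight of cells and the scaling, and a run with only cells that held no macrophage UMI was added after the data were seen. Of the repeated main values, 108 stayed within their spread or 1.5 times the count, and 22 moved, which are given here as WT then VISTA-KO. The share of interferon-stimulated cells was 11.6% and 10.7% with a limit of 2 marker UMIs, 5.45% and 4.70% with a limit of 5, and 4.11% and 3.88% after thinning to 2000 UMIs. The type I list median was 2.31 and 2.14 with the limit of 5, 2.42 and 2.19 after thinning, and 1.63 in VISTA-KO with the limit of 2. Genes past 2-fold between classes were 173 and 179, and 270 and 269 after thinning, and 291 in VISTA-KO with dividing cells kept. Genes past 1.5-fold between genotypes were 268, but 163 with the limit of 2, 504 with the limit of 5, 738 after thinning, 461 with dividing cells kept, 442 with other-cell UMIs left out, 99 at 50 CPM and 790 with no filter, so this count depends on the setting. Without the largest clonotype, 74.0% of WT interferon-stimulated cells were in clonotypes of at least 2 cells. Of the repeated single-gene values, 2663 stayed within their spread, 584 moved and 8, all of Ccl1, reversed. Genes with 50% or more of their UMIs in 5 cells were left out of these repeats, with Ccl1 the exception. They were 27 genes between classes in WT, 23 in VISTA-KO and 13 between genotypes, among them Cd74 and Hmox1. Whether their values reversed was thus not counted. The values of Ccl1 reversed where the 1 cell that holds its UMIs dropped out. Its VISTA-KO log2 ratio between classes was then -4.08 (limit of 5), -4.24 (thinned), -4.08 (limit per 10000 UMIs) and -3.91 (doublets out), and its ratio between genotypes -0.36, -0.54, -0.39 and -0.37. For the other moved values the cause was not tested. No paired analysis was possible because each genotype had 1 library. Depth limits the interferon-stimulated cells most, with 2192408 UMIs in WT and 1650416 in VISTA-KO, and genes under 20 CPM were left out of the counts.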
